A study of Homo sapiens with 6 samples.

Results

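The response of SK-N-MC cells to silencing of STEAP1 was described from 3 of the 6 arrays of the study, a control array and 1 array for each of 2 short interfering RNAs (siRNAs) against STEAP1. The arrays were chosen by their labels, which name the line and the siRNA. SK-N-MC is an established Ewing tumor cell line. All cells were unmodified in genotype as far as the labels say, and both lines of the study, SK-N-MC and A673, were grown in medium with siRNA at 5 nM for 48 h and taken at 80% confluency. The control cells received a non-silencing siRNA whose identity is not given in the labels, and the silenced cells received siSTEAP1_2 or siSTEAP1_3, called siRNA 2 and siRNA 3 here. In each line, 200 ng of RNA per sample was labelled and hybridised to an Affymetrix Human Gene ST array. The other 3 arrays are a control and the same 2 siRNAs in A673, another established Ewing tumor line, and serve here for comparison only. The A673 control is numbered 2 in its title and the SK-N-MC control has no number. Whether both lines received the same control siRNA is not given. With 1 control array and 1 array per siRNA, no difference of a single siRNA has a replicate, and the labels do not say whether the 3 samples came from separate cultures. A test that takes both siRNAs as replicates of silencing therefore measures only the spread between these arrays.

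STEAP1 encodes a multi-pass, heme-binding membrane protein, and its relatives STEAP2, STEAP3 and STEAP4 are metalloreductases that pass electrons to iron and copper. In Ewing tumors STEAP1 is a target of the fusion factor EWSR1-FLI1, which drives the disease. The interferon system is a defence against viruses. Cells sense double-stranded RNA through receptors such as RIGI, IFIH1 and the OAS enzymes, and secrete interferons. These bind surface receptors, signal through JAK kinases and STAT factors, and switch on a large set of antiviral genes through a promoter motif called the interferon-stimulated response element. Many tumor lines keep part of this set switched on in culture without added interferon.

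Levels are log2 of the array intensity, so a difference of 1 is a 2-fold change, and a level says little about one gene against another because probes differ in brightness. The 18417 genes measured had a median level between 3.21 and 3.24 on every one of the 6 arrays, and 7239 to 7444 genes per array lay at 4 or above, the limit used here for a well-measured gene. Of the 9 Ewing tumor markers listed, 8 were measured, with a median level of 7.04 in the SK-N-MC control array. The marker lists of leukocytes, epithelium, endothelium, fibroblasts and muscle had medians of 1.56, 1.65, 1.46, 2.59 and 1.84 there, all below the array's median. None of their members was 2-fold lower or higher in both siRNA arrays, where 0.299% and 0.0163% of all genes were.

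The targeted transcript was lower in both siRNA arrays. STEAP1 lay at 7.15 in control cells, 4.17 under siRNA 2 and 4.73 under siRNA 3, so that 12.7% and 18.7% of the control intensity were left. Both siRNA arrays lay far below the control, and siRNA 2 was the lower (siRNA 2 minus siRNA 3, -0.56). In a bulk sample, fewer cells with a transcript and less of it per cell cannot be told apart. The mean difference was -2.70 (standard error, SE, 0.24, lower in 2 of 2 siRNA arrays), with a limma adjusted p of 0.0681 over all genes, just above the threshold of 0.05. STEAP1 passed the threshold when genes with a mean log2 under 4 were left out, at 0.0354, and with a variance trend, at 0.0166. It did not pass with a pseudocount of 16 or in the SK-N-MC arrays alone, where limma called 0 genes lower. Dropping siRNA 2 or siRNA 3 leaves a single silenced array in this line, which gives no spread of its own. The differences were then -2.42 and -2.98. The other family members differed by less. STEAP2 lay at 6.89, 6.57 and 7.04 in the control, siRNA 2 and siRNA 3 arrays. STEAP3, an endosomal iron reductase, was at 3.67, 3.97 and 3.87, STEAP1B, the closest relative of STEAP1, at 3.79, 3.34 and 3.67, and STEAP4 at 1.30, 1.17 and 1.53, below the median of its arrays. In A673 STEAP1 lay at 6.23, 4.53 and 4.59 in the same order, and the SK-N-MC response minus the A673 response was -1.03 (SE 0.35, limma adjusted p 1), not past the threshold.

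With both siRNAs, more genes were 2-fold lower than 2-fold higher. Against the control array, 142 genes (0.771%) were at least 2-fold lower with siRNA 2 and 96 (0.521%) with siRNA 3, while 34 (0.185%) and 13 (0.0706%) were at least 2-fold higher. In both arrays at once, 55 genes (0.299%) were lower and 3 (0.0163%) were higher, and no gene was 2-fold lower with one siRNA and 2-fold higher with the other. At 1.5-fold these counts were 194 (1.05%) and 53 (0.288%). Without a size limit, 6024 genes were lower in both arrays and 5784 higher, so that 64.2% of genes had the same sign. The balance differed with level. Of the 7330 genes with a mean level of at least 4, 3012 were lower and 1620 higher in both arrays, with medians of -0.10 for siRNA 2 and -0.02 for siRNA 3. Of the 11087 dimmer genes 3012 were lower and 4164 higher, with medians of 0.05 and 0.01. Both differences subtract the same control array, so an error in that array enters both of them with the same sign. The spread of the difference over all genes was 0.335 (SD) for siRNA 2 and 0.269 for siRNA 3, and that between the siRNA arrays, which does not use the control, was 0.307.

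The fit that treats both siRNAs as replicates called 1 gene lower (0.00543% of genes) and 0 genes higher (0%). The called gene was XAF1, and 943 genes had an unadjusted limma p under 0.05 where 921 would be expected with no change at all. With siRNA 2 left out it called 8 genes lower, with siRNA 3 left out 60, and with either A673 siRNA array left out 0. Counts at 2-fold are therefore descriptions of these 3 arrays, and "lower" below means a measured difference unless a test is named. Among the 55 lower genes, the 22 with a mean level of at least 4 over the 3 arrays are measured best. The other 33 are dimmer on average, and 39 of the 55 lay under the array median with siRNA 2 and 25 with siRNA 3, against 1 in the control array.

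**Figure D1:**
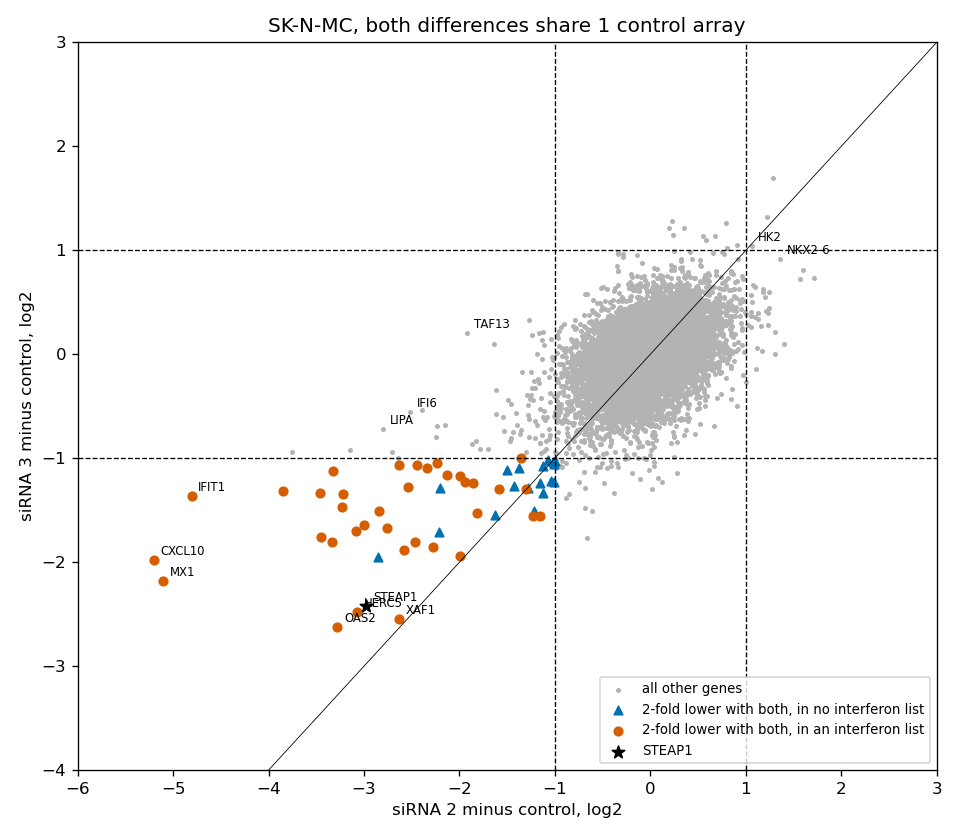
Difference from the control array with siRNA 2 (horizontal axis, log2) and with siRNA 3 (vertical axis, log2) for each of 18417 genes in SK-N-MC, with dashed lines at 2-fold and a thin line where both are equal. The 36 interferon-related genes lie at the lower left, 34 of them above the thin line because their drop with siRNA 2 was larger, and 3 genes lie past both upper lines.

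Of the 55 genes, 36 (65.5%) belong to lists of interferon-related genes, although such lists hold only 133 (0.722%) of all genes measured. Read the other way, 27.1% of the 133 listed genes were 2-fold lower in both arrays, against 0.299% of all genes. At any size, 103 of them (77.4%) were lower in both, against 32.7% of all genes and 41.1% of those with a mean level of at least 4. The lists were written with earlier results of these data known, so their share is a description. The median level of the 36 genes was 5.25 in SK-N-MC control cells, 2.50 under siRNA 2 and 3.77 under siRNA 3. In A673 the same genes had medians of 2.51, 2.43 and 2.81 in the control, siRNA 2 and siRNA 3 arrays. Of the 36, 35 were brighter in the SK-N-MC control than in the A673 control, as were 14 of the 19 other lower genes. Both groups were chosen for a high value in the SK-N-MC control array, which favours this order. With siRNA 2 the SK-N-MC median of the 36 genes lay at that of the A673 control, and with siRNA 3 between both controls. With siRNA 2, 28 of the 36 lay under the array median, and with siRNA 3 15, so these medians include many dim values.

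The promoters of many lower genes held a sequence that the choice of genes did not use. The interferon-stimulated response element was searched as GAAA, any 2 bases and GAAA again, on both strands, in the 300 bases from 250 before to 50 after each RefSeq start (assembly GRCh38.p14). A promoter was listed for 44 of the 55 genes, and 26 of these (59.1%, 95% Wilson interval 44.4% to 72.3%) held the element at one or more starts, against 587 of 14237 genes overall (4.12%). At the first listed start alone the counts were 22 of 44 (50%) and 433 of 14237 (3.04%). The stretches below were chosen to show the element in genes of different roles. Capitals mark it, either as GAAA-type or, on the opposite strand, as TTTC-type letters, with up to 20 bases on each side, and each sequence is read in the direction of its gene. MX1 (chr21:41431834-41431883, plus strand) has it beginning 196 bases before a start, IFIT1 (chr10:89392487-89392536, plus strand) 116 bases, ISG15 (chr1:1013370-1013419, plus strand) 107 bases and RSAD2 (chr2:6877612-6877661, plus strand) 145 bases, and these are antiviral effectors. OAS3 (chr12:112938311-112938360, plus strand, 143 bases) makes the RNA sensor's second messenger, CXCL10 (chr4:76023689-76023738, minus strand, 221 bases) is a chemokine and TAP1 (chr6:32853809-32853858, minus strand, 134 bases) is a peptide transporter. DDX60L (chr4:168480513-168480562, minus strand, 50 bases) and GCA (chr2:162318676-162318725, plus strand, 67 bases) were in none of the lists.
MX1: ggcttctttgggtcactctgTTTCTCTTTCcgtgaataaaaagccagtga
IFIT1: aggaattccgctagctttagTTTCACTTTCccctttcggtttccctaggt
ISG15: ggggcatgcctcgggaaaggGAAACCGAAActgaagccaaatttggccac
RSAD2: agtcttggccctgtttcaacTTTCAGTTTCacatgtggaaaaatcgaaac
OAS3: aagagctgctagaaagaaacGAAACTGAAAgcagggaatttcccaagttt
CXCL10: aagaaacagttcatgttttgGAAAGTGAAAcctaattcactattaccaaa
TAP1: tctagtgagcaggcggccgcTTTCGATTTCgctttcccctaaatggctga
DDX60L: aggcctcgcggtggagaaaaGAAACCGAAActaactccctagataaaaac
GCA: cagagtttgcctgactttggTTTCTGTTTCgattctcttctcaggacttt

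The element was also counted in genes lower with 1 siRNA only. It was found for 18 of 73 genes (24.7%, interval 16.2% to 35.6%) that were 2-fold lower with siRNA 2 and not with siRNA 3, and for 2 of 30 (6.67%, interval 1.85% to 21.3%) in the reverse case. Of the 31 genes higher with siRNA 2 only, 25 had a promoter listed and 1 held it. Interferon-related genes that were not 2-fold lower in both arrays held it in 30 of 72 cases (41.7%), compared with 20 of 29 (69.0%) for those that were. The 19 lower genes outside these lists had 15 listed promoters, of which 6 (40.0%) held it: those of DDX60L, GCA, NMI, ACTA2, CPNE4 and GPR174. The gamma-activated site, the element of the type II interferon response, searched as TTCCNGGAA, was in 3 of the 44 promoters (6.82%) and in 221 of all 14237 (1.55%). A match shows the letters in this window and not that a factor binds there, and the windows of both XAF1 starts held no match for either element.

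**Figure D2:**
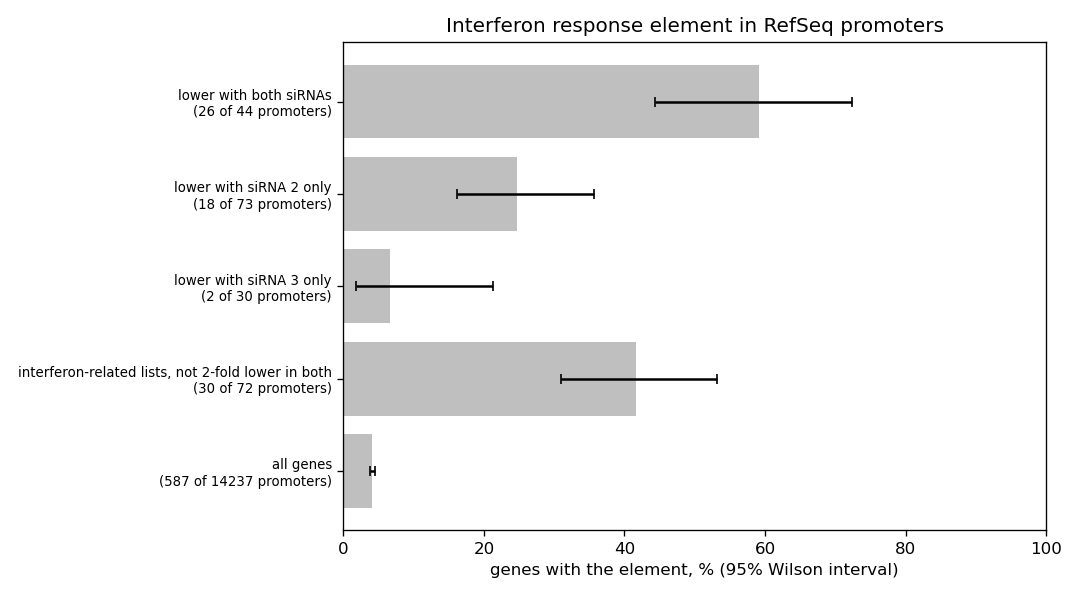
Percentage of genes whose RefSeq promoter holds the interferon-stimulated response element (horizontal axis, %), by class of response in SK-N-MC, with 95% Wilson intervals. The genes 2-fold lower with both siRNAs stand at 59.1% and all genes at 4.12%.

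At the upstream end of the system, the 6 measured genes of the interferon ligand list were dim, with a median level of 1.03 in the control array, and their median difference was 0.01 with siRNA 2 and 0.13 with siRNA 3. IFNB1, the main interferon of non-immune cells, lay at 1.04, 1.21 and 1.20. The 9 receptors and JAK kinases had medians of -0.13 and -0.11, and none was 1.5-fold lower in both arrays (1.05% over all genes). Without a size limit, 6 of the 9 were lower in both arrays and 0 higher, where 32.7% of all genes were lower. JAK1, the kinase that all interferon receptors use, was at 8.89, 8.89 and 8.98, and IFNGR1, a chain of the type II receptor, at 6.45, 6.14 and 6.35. The receptor chain IFNAR1 was at 6.25, 5.43 and 6.10 and the kinase TYK2 at 5.13, 4.65 and 4.91, both lowest with siRNA 2. IFNL2, an interferon gene outside the list, was dim too and higher in both arrays, at 1.87, 2.79 and 2.79.

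Among the 12 signalling factors measured of 14, the medians were -0.31 and -0.30, and 2 were 2-fold lower in both arrays (0.299% over all genes). IRF1, a transcription factor that interferons induce, lay at 3.96 in control cells, 1.96 under siRNA 2 and 2.01 under siRNA 3. Both siRNA arrays gave the same low value, 25% and 26% of control, and limma's adjusted p was 0.0681 (mean difference -1.97, SE 0.16, lower in 2 of 2). USP18, the protease that removes ISG15 and dampens the receptor, was at 5.91 in control cells, 2.91 under siRNA 2 and 4.26 under siRNA 3, with siRNA 3 between the other arrays. IRF9, the DNA-binding part of the STAT complex, followed at 5.48, 4.27 and 5.16, a 2-fold drop with siRNA 2 only. STAT3 lay at 7.80, 7.26 and 7.34, -0.53 and -0.45 from control.

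Of the sensors of double-stranded RNA, 17 of 18 were measured. Of these 17, 14 were lower in both arrays, 7 by 1.5-fold and 4 by 2-fold, where the shares over all genes were 32.7%, 1.05% and 0.299%. OAS2, one of the enzymes that make the 2-5A messenger that activates RNase L, lay at 5.11 in control cells, 1.83 under siRNA 2 and 2.48 under siRNA 3, a drop to 10.3% and 16.2% of control. Both siRNA levels were under the array median, with A673 levels of 1.42, 1.34 and 1.22. Limma's adjusted p was 0.0681 (mean difference -2.95, SE 0.27). The better-measured OAS3 was at 7.14, 4.29 and 5.63 and OAS1 at 8.39, 5.76 and 7.33, so that siRNA 3 left both well above siRNA 2. RIGI, the helicase that recognises viral RNA ends, lay at 6.56 in control cells, 3.22 under siRNA 2 and 4.75 under siRNA 3. IFIH1, the sensor of long double-stranded RNA, was at 6.15, 3.76 and 5.61, and the kinase EIF2AK2 (PKR), which halts translation, at 8.82, 6.67 and 8.14. All 3 were lowest with siRNA 2, and IFIH1 and EIF2AK2 were less than 2-fold lower with siRNA 3. MAVS, the adaptor that relays the sensor signal, was at 4.28, 4.17 and 4.31.

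The 44 interferon-stimulated effectors had the lowest medians of the 45 lists with both siRNAs. Their median differences were -2.06 with siRNA 2 and -0.97 with siRNA 3, beside 0.00 for all genes. In both arrays, 21 were 2-fold lower and 34 1.5-fold, against 0.299% and 1.05% of all genes. Of the 44, 41 were lower in both arrays and 42 had their larger drop with siRNA 2. Over all genes these shares were 32.7% and 49.8%, and over genes with a mean level of at least 4 they were 41.1% and 60.9%. The median level was 5.20 in the control, 3.09 with siRNA 2 and 4.58 with siRNA 3, and 2.66, 2.68 and 2.84 in the same order in A673.

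**Figure D3:**
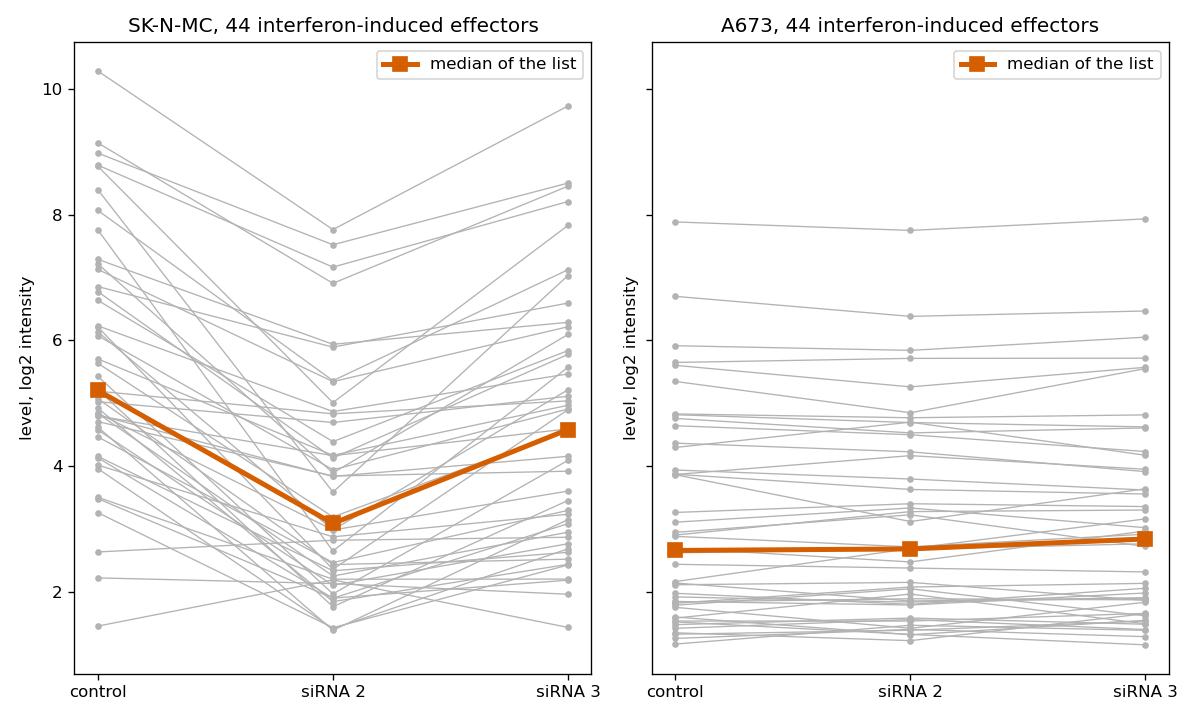
Level (log2 intensity) of each of the 44 measured interferon-stimulated effectors in the control, siRNA 2 and siRNA 3 arrays of SK-N-MC and A673, 1 grey line per gene, with the median of the list in colour. The SK-N-MC median goes from 5.20 to 3.09 and 4.58, and the A673 medians lie between 2.66 and 2.84.

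XAF1, a pro-apoptotic protein, was the gene that passed limma's threshold. It lay at 5.07 in control cells, 2.43 under siRNA 2 and 2.52 under siRNA 3, and at 1.98, 1.80 and 2.06 in the 3 A673 arrays. The siRNA arrays nearly coincided and left 16.1% and 17.1% of control (mean difference -2.59, SE 0.18, limma adjusted p 0.0466, lower in 2 of 2). Both siRNA levels lay under their array medians of 3.24 and 3.22. With a mean level under 4 over the SK-N-MC arrays, XAF1 was not a well-measured gene and was not in the fit limited to such genes. The difference from the A673 response was -2.54 (SE 0.26, limma adjusted p 0.509, the smallest of all genes for that difference). The call was lost with a pseudocount of 16, at an adjusted p of 0.612, and at 0.712 in the SK-N-MC arrays alone and without either A673 siRNA array.

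The antiviral GTPase MX1, which traps viral particles, lay at 7.75 in control cells, 2.65 under siRNA 2 and 5.57 under siRNA 3. With siRNA 2 it came near its A673 levels of 1.85, 1.79 and 1.98, while with siRNA 3 it kept 22% of the control intensity and stayed above the array median. Its relative MX2 was dimmer and even between siRNAs, at 3.50, 2.20 and 2.20. The IFIT proteins bind foreign RNA ends, and IFIT1 had the widest gap between siRNAs among genes with a mean level of at least 4. IFIT1 was at 8.39 in control cells, 3.59 under siRNA 2 and 7.03 under siRNA 3, so 3.57% was left with siRNA 2 and 38.9% with siRNA 3. IFIT2 lay at 4.83, 2.25 and 2.95, IFIT3 at 5.43, 1.97 and 4.09 and IFIT5 at 6.21, 2.36 and 4.90. Limma's adjusted p was 0.787 for MX1 and 0.936 for IFIT1, because the gap between the siRNAs enters the error (SE 0.98 and 1.16).

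The ISG15 pathway attaches a ubiquitin-like protein to others. ISG15 itself lay at 6.07 in control cells, 3.94 under siRNA 2 and 4.91 under siRNA 3. Its activating enzyme UBA7 was at 4.46, 2.47 and 3.29, its ligase HERC5 at 4.92, 1.84 and 2.44 and the related HERC6 at 5.21, 1.76 and 3.45. HERC5 was nearly as low with siRNA 3 as with siRNA 2 (mean difference -2.78, SE 0.29, limma adjusted p 0.0891). TRIM25, a ligase that activates RIGI, was at 7.29, 5.94 and 6.29, just inside the 2-fold limit with siRNA 3. Activating enzyme, ligases and the protease USP18 were thus all 2-fold lower in both arrays together with ISG15.

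Other effectors gave the same order of arrays. RSAD2 (viperin), which makes a chain-terminating nucleotide, was at 4.57, 2.10 and 2.76 in the control, siRNA 2 and siRNA 3 arrays. The nuclear body protein SP100 was at 4.62, 1.39 and 3.15 and SAMD9, a restriction factor of poxviruses, at 7.21, 3.89 and 6.09. IFI27 lay at 4.84, 2.98 and 3.60 and the antibody receptor TRIM21 at 4.15, 2.33 and 2.63. In each of these genes the control was highest and siRNA 2 lowest. Several of the brightest effectors missed the 2-fold limit with siRNA 3 and so are not among the 55. IFI6, a mitochondrial protein, lay at 10.28 in control cells, 7.76 under siRNA 2 and 9.73 under siRNA 3, IFITM1, which blocks viral entry, at 9.14, 6.91 and 8.45, and IFI44L at 8.77, 5.01 and 7.83. BST2 (tetherin), which holds virus particles at the membrane, missed the limit by the least, at 6.77, 4.13 and 5.78, with differences of -2.645 and -0.998.

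**Figure D4:**
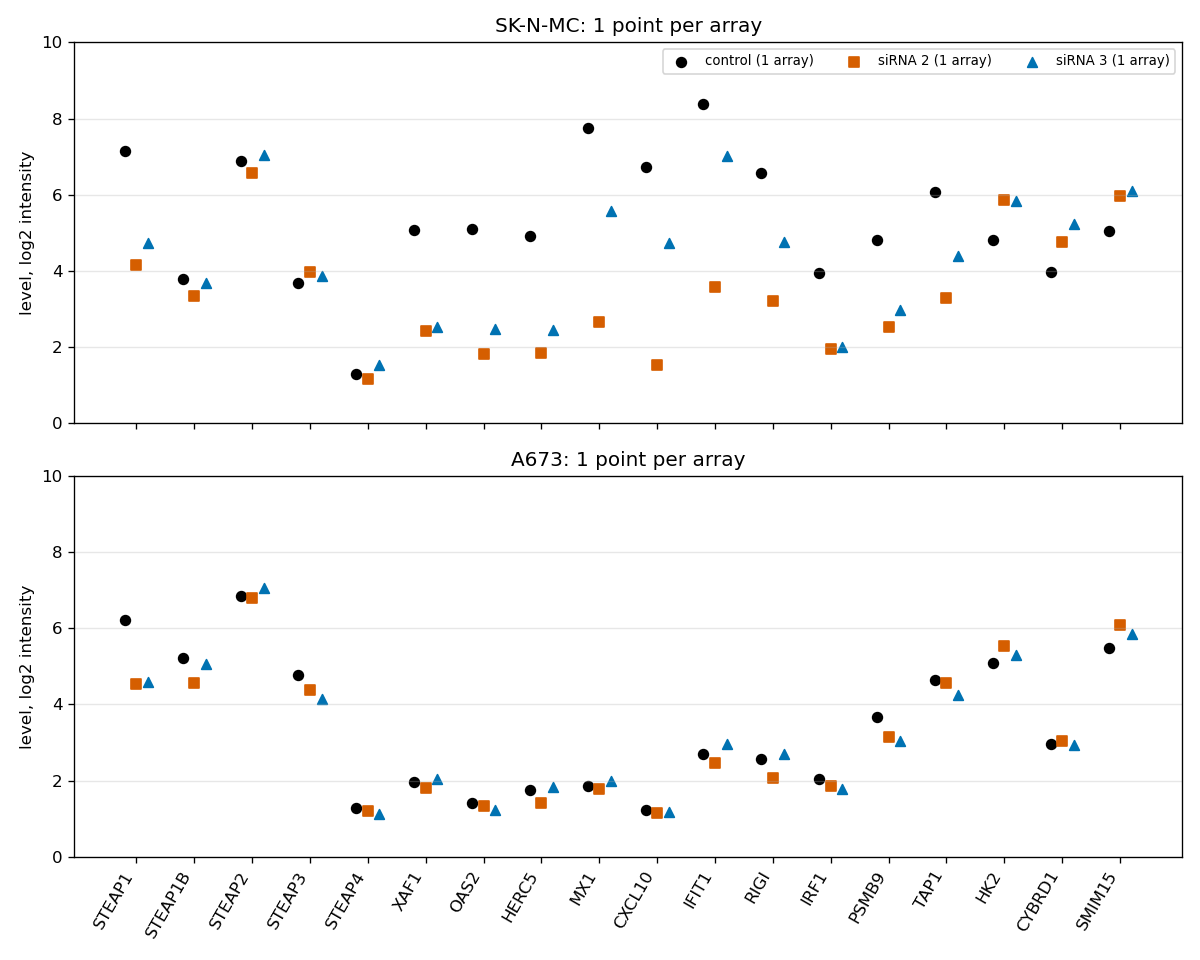
Level (log2 intensity) of 18 genes in the control (circles), siRNA 2 (squares) and siRNA 3 (triangles) arrays of SK-N-MC (top) and A673 (bottom), 1 point per array. STEAP1 is lower with both siRNAs in both lines, and the interferon-related genes from XAF1 to TAP1 are lower with both siRNAs in SK-N-MC, where MX1 goes from 7.75 to 2.65 and 5.57.

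The next list holds genes of antigen presentation on major histocompatibility complex (MHC) class I. Of 22 listed genes 15 were measured, 13 were lower in both arrays (32.7% over all genes), and the medians were -1.07 and -0.57. In both arrays 4 were 2-fold lower (0.299% over all genes), and these are neighbours in the MHC class II region. They are the immunoproteasome subunits PSMB9 and PSMB8 and both chains of the peptide transporter, TAP1 and TAP2. PSMB9 lay at 4.82 in control cells, 2.54 under siRNA 2 and 2.97 under siRNA 3 (limma adjusted p 0.0891, mean difference -2.07, SE 0.22). PSMB8 was at 3.87, 2.64 and 2.32, TAP1 at 6.06, 3.30 and 4.39 and TAP2 at 5.55, 3.21 and 4.45. TAP1 and TAP2 kept more with siRNA 3, whereas PSMB8 was lowest with siRNA 3. Each of the 4 genes has 3 probe sets on the array, of which the brightest was used. Another probe set of TAP2 differed by -2.061 and -0.997, just outside the 2-fold limit with siRNA 3.

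Other genes of class I loading lay outside the 2-fold limit with siRNA 3. B2M, the light chain of every class I molecule, lay at 9.13, 7.85 and 8.64, the trimming peptidase ERAP1 at 4.91, 3.04 and 4.05, the proteasome activator PSME1 at 6.83, 5.43 and 6.26 and the loading protein TAPBP at 7.65, 6.59 and 6.83. All were more than 2-fold lower with siRNA 2 and less than 2-fold with siRNA 3. The 20 subunits of the constitutive proteasome, which interferon does not induce, had medians of -0.15 and -0.06, and PSMB5, the subunit that PSMB8 replaces, was at 6.68, 6.54 and 6.47. The calnexin gene CANX, a general chaperone, was at 9.45, 9.34 and 9.33. The MHC class II list had medians of -0.28 and -0.45 over 6 members, with IFI30, a thiol reductase of antigen processing, at 6.33, 5.69 and 5.33.

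CXCL10, a chemokine that attracts T cells, had the deepest drop with siRNA 2. It lay at 6.73 in control cells, 1.53 under siRNA 2 and 4.75 under siRNA 3, so 2.72% was left with siRNA 2 and 25.3% with siRNA 3. The A673 arrays were dim throughout for CXCL10, at 1.22, 1.15 and 1.18. The mean difference was -3.59 (SE 1.08, limma adjusted p 0.846). The other 6 genes of the chemokine list did not pass 1.5-fold in both arrays, and CXCL9, which type II interferon induces, was dim at 1.15, 1.20 and 0.91.

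The list labelled PARP macrodomain genes, of ADP-ribosyltransferases and a partner, included a linked pair. DTX3L lay at 6.20 in control cells, 3.12 under siRNA 2 and 4.50 under siRNA 3 and its partner PARP9, with which it forms a ligase, at 5.28, 2.06 and 3.94. PARP12 was at 6.23, 4.28 and 5.00, and 6 of the 7 listed genes were lower in both arrays (32.7% over all genes). Among the apolipoprotein L genes, which interferons and inflammation induce, APOL6 was at 4.26, 3.10 and 2.71, lower with siRNA 3, and the list's medians were 0.01 and -0.25. The guanylate-binding proteins, typical targets of type II interferon, were dim, with a median level of 1.39 in the control, and their medians were -0.12 and -0.06. Targets of the inflammatory factor NF-kB had medians of -0.04 and -0.15 over 19 genes. NFKB2, a subunit of it, was at 4.03, 2.92 and 3.10 and its inhibitor TNFAIP3 (A20) at 3.04, 2.29 and 2.30. These were the 2 members that were 1.5-fold lower in both arrays (1.05% over all genes). NFKBIA, another inhibitor, had the deepest drop of the list with siRNA 2, at 6.63, 5.14 and 6.19. Without a size limit, 10 of the 19 were lower in both arrays (32.7% over all genes) and 3 higher.

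Among the 55 lower genes, the depth of the drop was compared between the siRNAs. Of the 36 interferon-related genes lower in both arrays, 34 had the larger drop with siRNA 2, with medians of -2.61 and -1.49, and 19 were at least 2-fold lower with siRNA 2 than with siRNA 3. Of the 19 other genes, STEAP1 included, 10 had the larger drop with siRNA 2. The medians of the 19 were -1.22 and -1.24, and none was 2-fold apart. The siRNAs lay within 0.5 of each other for 9 of the 36 genes and 16 of the 19. This split was seen after the values were known, rests on which genes the lists hold, and has no test. For STEAP1 itself, siRNA 2 minus siRNA 3 was -0.56.

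The genes lower in both arrays but in no interferon list have varied roles. Being in no list does not make them unrelated to interferon, and 6 of their 15 listed promoters held its response element. The 17 in no list at all are named here after their values were seen, together with ACTA2. The helicase-like DDX60L lay at 5.19 in control cells, 2.33 under siRNA 2 and 3.24 under siRNA 3, and complement C3, the hub of the complement cascade, at 4.33, 2.12 and 2.62. GCA (grancalcin), a calcium-binding protein, was at 3.73, 2.10 and 2.19, with a limma adjusted p of 0.0891 (mean difference -1.59, SE 0.17). TDO2, which breaks down tryptophan, was at 3.49, 1.28 and 2.20, and the STAT partner NMI at 3.75, 2.32 and 2.49. STAT4, a relay of cytokine signals, was dim, at 2.71, 1.67 and 1.5. The inflammatory caspase CASP4 was at 4.08, 3.06 and 3.05 and GMPR, a purine enzyme, at 3.35, 2.22 and 2.01.

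The others had similar values with both siRNAs. ACTA2, smooth muscle actin, lay at 5.95 in control cells, 4.73 under siRNA 2 and 4.44 under siRNA 3, with siRNA 3 the lower, and in A673 it was at 6.31, 6.05 and 5.72. The signalling ligand WNT10A was at 5.78, 4.77 and 4.56, HINT3, a nucleotide-binding protein, at 5.40, 4.25 and 4.17 and the receptor GPR174 at 5.00, 3.99 and 3.94. SPATS2L was at 5.17, 3.67 and 4.06 and PIGQ, which takes part in making membrane anchors, at 4.75, 3.37 and 3.65. CENPH, a kinetochore protein, was at 4.26, 3.13 and 3.19 and CPNE4 at 4.46, 3.38 and 3.44. The orphan receptor ESRRB was at 4.06, 3.05 and 3.03 and ATP6AP1L at 3.35, 2.06 and 2.06. With all probe sets of ATP6AP1L averaged, its mean difference was -0.724 instead of -1.28, short of 2-fold. Limma's adjusted p for these 10 genes, ACTA2 included, lay between 0.155 and 0.921. The 2-fold limit is arbitrary: TRIM25 (-1.351 and -1.001), ESRRB (-1.004 and -1.031) and WNT10A (-1.006 and -1.224) lay just inside it, and CLEC1A (-0.994 and -1.091) and GLIPR1 (-0.987 and -1.012) just outside. Of the well-measured genes named by rank, LMLN was at 5.16, 4.20 and 4.08 and CCNA1, a cyclin of germ cells, at 5.32, 4.34 and 4.37, also just outside.

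On the higher side, HK2, the hexokinase that starts glycolysis and the only gene with a mean level of at least 4 past 2-fold in both arrays, lay at 4.80 in control cells, 5.86 under siRNA 2 and 5.85 under siRNA 3. The siRNA arrays coincided (mean difference 1.05, SE 0.18, limma adjusted p 0.369, higher in 2 of 2), and in A673 the levels were 5.09, 5.53 and 5.29. The other glycolysis and hypoxia genes had no such value: the list's medians were 0.02 and -0.12 over 22 genes. SMIM15 was at 5.05, 5.96 and 6.10 and ZNF480 at 3.87, 4.71 and 4.65. CYBRD1, a plasma membrane ferric reductase of the cytochrome b561 family, was at 3.97 in control cells, 4.76 under siRNA 2 and 5.23 under siRNA 3, and in A673 at 2.96, 3.04 and 2.94. PELI2, a ligase of innate immune signalling, was at 4.26, 5.07 and 4.99, C19orf12, a mitochondrial membrane protein, at 4.22, 5.11 and 4.92 and ERO1A, the oxidase of the endoplasmic reticulum, at 5.22, 5.83 and 5.99.

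The remaining higher genes by rank included the purine receptor P2RY1 at 3.83, 5.00 and 4.42, the spliceosomal RNA RNU5E-1 at 9.53, 10.22 and 10.29, the guide RNA SNORD33 at 9.42, 9.99 and 10.17 and ASNS, the asparagine synthetase, at 4.52, 5.04 and 5.21. Their limma adjusted p-values were all above the threshold, at 0.843 for P2RY1 and 0.956 for ASNS. The other 2 genes past 2-fold in both arrays were dim: EOLA1-DT at 1.24, 2.53 and 2.94 and DNM1P46, a pseudogene, at 2.31, 3.53 and 3.63. Other probe sets of DNM1P46 differed by only -0.06 to 0.25. NKX2-6, at 2.15, 3.51 and 3.07, was also dim throughout, as was IFNL2, the type III interferon gene given above.

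Between the siRNA arrays themselves, 81 genes (0.440%) were at least 2-fold lower with siRNA 2 and 39 (0.212%) at least 2-fold higher. Most of the lower genes at the top of that ranking were interferon effectors (IFIT1, CXCL10, MX1, IFI44L, IFIT5, SP110 and SAMD9). The exception was TAF13, a subunit of the basal transcription factor TFIID. TAF13 lay at 5.13 in control cells, 3.21 under siRNA 2 and 5.33 under siRNA 3, so siRNA 2 alone was low, and at 5.50, 5.07 and 5.24 in A673. On the other side were genes that were low with siRNA 3 alone. CAMK2N1, an inhibitor of calcium-dependent kinase, was at 5.11, 5.23 and 3.89, DYNLT3, a dynein light chain, at 4.57, 4.65 and 3.38 and RRN3, a factor of ribosomal RNA transcription, at 5.83, 6.08 and 4.84. The mitochondrial ornithine carrier SLC25A15, at 4.63, 5.10 and 3.87, was above the control with siRNA 2 and below it with siRNA 3. Others were highest with siRNA 2, such as EOLA2 at 4.02, 4.87 and 3.68, the lipid receptor LPAR3 at 3.69, 4.80 and 3.56, PCDHA12 at 4.03, 5.20 and 4.06 and KRTAP10-2 at 3.70, 5.11 and 3.80.

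Genes lowered by 1 siRNA only were set beside the same siRNA in A673, whose control array is separate. Of the 87 genes 2-fold lower with siRNA 2 only, 22 were interferon-related, and 61 (70.1%) were also lower with siRNA 2 in A673, against 51.4% of all genes. By 1.5-fold, 9 of them (10.3%) were lower there, against 1.43% of all genes. With siRNA 3 in A673, 53 of the 87 (60.9%) were lower, against 49.2% of all genes, and 2 (2.30%) by 1.5-fold, against 1.54%. Of the 41 genes 2-fold lower with siRNA 3 only, 1 was interferon-related, 26 (63.4%) were lower with siRNA 3 in A673 and 15 (36.6%) with siRNA 2, and 4 (9.76%) and 2 (4.88%) were 1.5-fold lower. The A673 differences with both siRNAs share a control array, so these shares are not independent of each other.

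The genes that repeated with the same siRNA are named after their values were seen. LIPA, the lysosomal acid lipase, lay at 5.09 in control cells, 2.29 under siRNA 2 and 4.37 under siRNA 3 and at 5.58, 4.34 and 5.32 in the A673 control, siRNA 2 and siRNA 3 arrays. The adiponectin receptor ADIPOR1 was at 7.63, 6.16 and 6.80 in SK-N-MC, and at 7.23, 6.53 and 7.05 in the other line. The G protein subunit GNB4 was at 6.78, 5.53 and 6.61, with A673 levels of 6.92, 6.11 and 6.92. The peptidase NPEPPS was at 6.43, 5.09 and 6.26, with A673 levels of 5.77, 5.13 and 5.92. In all of these siRNA 2 was the lowest array of both lines. CCDC88C, ARHGAP12, ZNF594, POLR3G and APOL2 complete the 9, and POLR3G was 1.5-fold lower with both siRNAs in A673, at 5.43, 4.80 and 4.69. With siRNA 3, RTRAF, which takes part in transfer RNA ligation, was at 7.09, 6.90 and 5.95, with A673 levels of 6.80, 7.15 and 6.18. KCTD20 was at 5.94, 5.81 and 4.94, with A673 levels of 5.86, 5.81 and 5.26, so that siRNA 3 was the lowest array of both lines. IFI30 and RNU4-2 were the other 2, and in A673 both were 1.5-fold lower with siRNA 2 as well, with levels of 3.48, 2.81 and 2.82 for IFI30 and 2.55, 1.73 and 1.79 for RNU4-2. The sequences of the siRNAs were not used here, and any part of them in these values was not tested.

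Lists tied to the biology of the tumor had medians nearer to 0 than the effectors. Outside the 11 interferon-related lists and the STEAP family, the medians of 33 lists lay between -0.30 and 0.22 with siRNA 2 and between -0.22 and 0.22 with siRNA 3. The lowest of them with siRNA 2, -0.30, was that of the 8 Ewing tumor markers, STEAP1 included, whose median with siRNA 3 was -0.04. Of these 8, 5 were lower and 2 higher in both arrays. LIPI was at 6.93, 6.35 and 6.83 and CCND1 at 7.75, 7.22 and 7.68. Genes activated by EWSR1-FLI1 had medians of -0.22 and -0.06 over 26 genes, with 13 lower and 4 higher in both arrays. STEAP1, the target of the siRNAs, was the only 1 of them past 1.5-fold in both. Over all genes 1.05% were lower and 0.288% higher by that limit, so few would be expected among 26. PPP1R1A lay at 7.06, 6.48 and 6.57, and XG at 5.24, 4.97 and 4.23, 2-fold lower with siRNA 3 only. Genes it represses had medians of -0.09 and -0.22. The fusion's partner genes were at 7.37, 7.31 and 7.35 (EWSR1) and 3.78, 3.81 and 3.83 (FLI1), and the Ewing factor NKX2-2 at 6.15, 5.57 and 5.94.

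Genes of redox balance and metal handling, the field of the STEAP enzymes, had medians on both sides of the 0.00 of all genes. The 22 antioxidant genes had medians of -0.15 and -0.07. None was 1.5-fold lower or higher in both arrays, where 1.05% and 0.288% of all genes were, so few would be expected among 22. HMOX1, the heme oxygenase that oxidative stress induces, was at 2.57, 2.85 and 2.90 and the catalase gene CAT at 4.78, 4.39 and 4.56. Of the 15 iron and copper genes none was 2-fold lower or higher in both arrays (0.299% and 0.0163% over all genes). By 1.5-fold, 1 was higher in both (0.288% over all genes). This was the iron exporter SLC40A1, which was dim, at 1.75, 2.93 and 2.37. The ferric reductase CYBRD1, outside the list, was also higher in both arrays, as given above, and TFRC, the transferrin receptor, was at 8.07, 8.23 and 8.09. The 10 metallothioneins, which bind copper and zinc, had medians of 0.22, the highest of the 45 lists for siRNA 2, and 0.09, and the 19 respiratory chain genes -0.01 and -0.04.

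Cell cycle lists were centred near 0. The 23 G1/S genes had medians of -0.04 and -0.10 and the 21 G2/M genes 0.03 and -0.02. No gene of either list was 1.5-fold lower in both arrays (1.05% over all genes). AURKA, a mitotic kinase, was at 6.68, 6.44 and 6.00. In the list of ERK feedback and immediate early genes, 7 of 19 were lower in both arrays (32.7% over all genes) and 6 higher. FOS lay at 4.01, 3.39 and 3.16. It was the only 1 of the 19 that was 1.5-fold lower in both arrays (1.05% over all genes). DUSP6, at 4.06, 3.06 and 3.51, and ETV5, at 3.67, 3.12 and 2.68, lay just outside that limit with 1 siRNA each. FOSL1 was higher with both siRNAs, at 3.51, 4.35 and 3.97. The 17 metalloproteinase, TIMP and urokinase genes had medians of -0.19 and -0.03, with 9 lower and 4 higher in both arrays. The 16 collagen and matrix genes had medians of 0.07 and 0.04, with 5 lower and 9 higher. Over all 18417 genes, 6024 were lower and 5784 higher. Of the members that were lower, MMP9, a gelatinase, was at 3.97, 3.05 and 2.89 and its inhibitor TIMP1 at 9.69, 8.75 and 9.17. Fibronectin FN1 was at 7.42, 6.17 and 7.03, so that FN1 was more than 2-fold lower with siRNA 2 only. The reference gene GAPDH was at 11.34, 11.30 and 11.33 and ACTB at 10.66, 10.59 and 10.46, with list medians of -0.04 and -0.02. GUSB, also a reference gene, was at 6.31, 5.61 and 6.29, so 61.6% of control was left with siRNA 2 and 98.5% with siRNA 3.

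**Figure D5:**
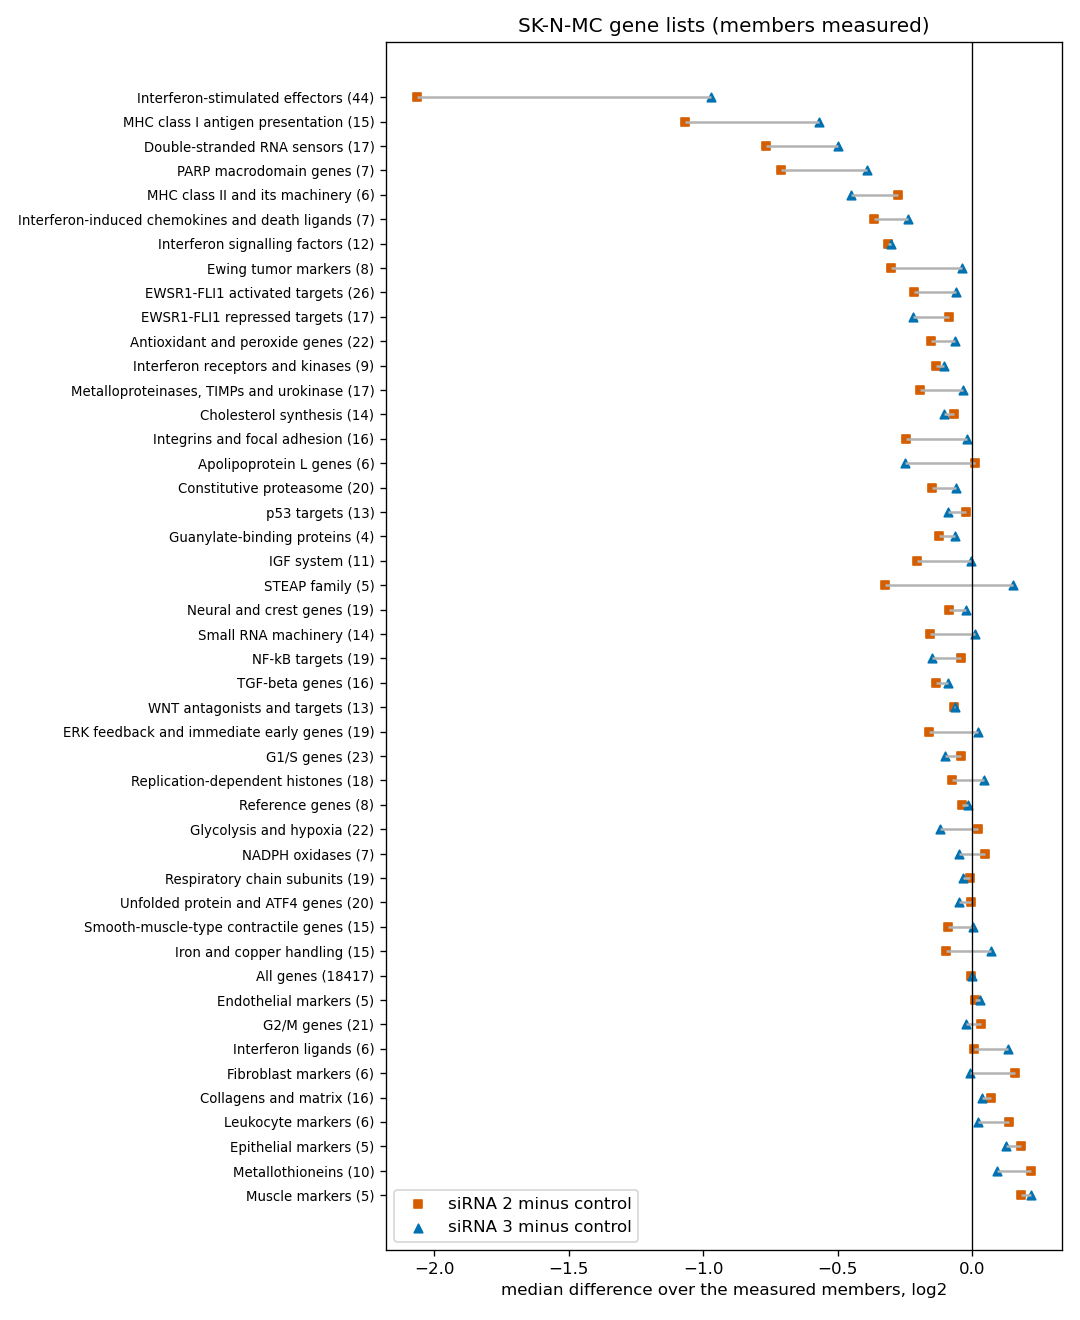
Median difference from the control array (horizontal axis, log2) over the measured members of each gene list in SK-N-MC, with squares for siRNA 2 and triangles for siRNA 3 and the number of members in brackets. The interferon-stimulated effectors stand at -2.06 and -0.97, and all genes at 0.00.

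With the same siRNAs in A673, the effectors had medians of -0.06 and 0.00. Of the 36 interferon-related genes, none was 2-fold lower with either siRNA in A673. Of all 18417 genes there, 27 were 2-fold lower with siRNA 2 and 24 with siRNA 3, so a count of none among 36 says little. In both A673 arrays at once, 7 of all genes were 2-fold lower and 2 higher. The 36 genes started at a median of 2.51 in A673, below the array median. The 10 of them that lay at 4 or above in the A673 control had median differences of -0.08 with siRNA 2 and -0.16 with siRNA 3 there, within a range of -0.62 to 0.14, against -2.69 and -1.41 in SK-N-MC. USP18 lay at 4.89, 4.94 and 4.72, IFIT5 at 4.82, 4.69 and 4.62 and PSMB8 at 4.33, 4.32 and 4.32 in the A673 arrays, so these well-measured genes were not near 2-fold lower there. For single genes the difference between the lines' responses was large, at -3.68 (SE 1.39) for MX1, -2.81 (SE 0.38) for OAS2 and -1.73 (SE 0.23) for IRF1. Limma called 0 genes (0%) for that difference, 711 had an unadjusted p under 0.05 and the smallest adjusted p was 0.509, so for no gene was the response shown to differ between the lines. With siRNA 3 left out it called 26 genes.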

How the data were processed

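The study has 6 Affymetrix arrays of the Human Gene ST type, of which the 3 of SK-N-MC are described. Per the submitters' processing notes, the authors used RMA and Affymetrix Expression Console 1.1, and the deposited intensities are on a linear scale. How they were taken back from a log scale is not given in the labels. Values under test are log2 of these intensities with no further normalization. Of 33297 probe sets, 21214 were annotated on the platform, 19460 carried 1 gene symbol (19429 matched by RefSeq, GRCh38.p14), 1754 carried several and were not named, and 12083 were unnamed. For each of 18417 genes the probe set with the highest mean was used.

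The test was limma 3.58.1 in R 4.3.3 (4 group means over all 6 arrays, lmFit and eBayes, two-sided, Benjamini-Hochberg over all genes, threshold 0.05). It was tested on simulated data. Tables were made with Python 3.11.15 and scipy 1.17.1. Precision is limited by the number of arrays. The arrays, gene lists and naming rule were chosen with earlier results of these data known. The rule names the STEAP family, genes past the threshold, the top 25 per direction with mean log2 of at least 4, the top 5 at any level, the 8 farthest apart between siRNAs and up to 4 per list. Other genes were named after their values were seen. Each alternative of the closing section changed 1 choice.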

Additional observations from a re-analysis of the deposited data

Results flagged for a closer look

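For 11 gene lists, both SK-N-MC siRNA medians lay on one side of 0 and both A673 medians on the other. The values are the mean of the SK-N-MC medians minus the mean of the A673 medians (log2), and the difference was not tested. It was 0.28 for the interferon ligands, which were dim, 0.16 for the epithelial markers, -0.13 for the guanylate-binding proteins, -0.13 for the NF-kB targets, -0.26 for cholesterol synthesis and -0.18 for the unfolded protein and ATF4 genes. It was -0.12 for the p53 targets, -0.13 for the G1/S genes, -0.22 for the IGF system, -0.062 for the reference genes and -0.24 for the Ewing tumor markers. No group held 4 or more arrays, so no array was tested as an outlier.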

How the results depend on the processing

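The median of the interferon-stimulated effectors (mean difference of both siRNAs, -1.54) kept its direction under every alternative run, between -0.917 and -2.06. The count of genes 2-fold lower in both arrays (55) was 22 with a filter at a mean log2 of 4, 13 with a pseudocount of 16, 194 at 1.5-fold and 95 for the mean difference, and 96 to 142 with 1 siRNA array left out. The count of higher genes (3) was 1 with the level filter, 1 with intensities under 8 set to 8, 0 with the pseudocount, 53 at 1.5-fold, 8 for the mean difference and 13 to 34 with 1 siRNA array left out. Limma's 1 lower gene became 109 with the floor of 8, under which many dim genes have no spread, 0 with the pseudocount, 0 in the SK-N-MC arrays alone, 5 with a variance trend and 0 to 60 with 1 array left out. Its 0 higher genes became 14 with the floor and 0 to 1 with 1 array left out, and its 0 calls for the difference of the responses became 177 and 0 to 26. Between the siRNAs, 81 genes lower with siRNA 2 became 19 with the pseudocount, and 39 higher became 17 with the level filter and 0 with the pseudocount. The promoter motifs, as the share of lower genes with the interferon element (59.1%), whose alternatives were chosen after seeing the data, came to 72.7% with the pseudocount, 28.4% at 1.5-fold and 37.6% to 37.8% with 1 siRNA array left out. Apart from the array or fewer genes left out, the cause of these changes was not tested.

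The mean difference had opposite signs with 1 siRNA array left out for genes in which the siRNAs disagree. Without siRNA 2 and without siRNA 3 in turn, it was -0.337 and 0.852 for EOLA2, -0.138 and 1.11 for LPAR3, 0.0319 and -0.109 for MAVS, 0.218 and -1.13 for POLR3G, 0.153 and -0.325 for STEAP2 and 0.201 and -1.92 for TAF13. It was -1.23 and 0.119 for CAMK2N1, -0.241 and 0.0559 for CXCL9, -1.19 and 0.0757 for DYNLT3, 0.0963 and -0.00279 for JAK1, -1.14 and 0.274 for RNU4-2, -0.986 and 0.252 for RRN3, -0.766 and 0.469 for SLC25A15 and 0.232 and -0.138 for STEAP4. After a second quantile normalization the sign changed for EWSR1 (0.0326), GAPDH (0.0826) and MAVS (0.0316). With the siRNA number as a replicate block shared by both lines, an alternative chosen after seeing the data, limma called 14 genes lower, 0 higher and 0 for the difference of the responses, with 1 residual degree of freedom. The 14 were XAF1 (adjusted p 0.00422), STEAP1 (0.00548), C3, DTX3L, GCA, HERC5, HERC6, IFI27, IFIT2, IRF1, OAS2, PSMB9, RIGI and TRIM21. The numbers name siRNAs and no shared culture. The A673 control is numbered 2 in its title and the SK-N-MC control carries no number. Between the lines, siRNA 2 minus siRNA 3 correlated at 0.0664 over genes, which are not independent replicates. Dim genes, for which no detection calls were used, and the single control array limit all sizes given.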

Other observations

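Of the 12083 probe sets without a gene name here, 82 (0.679%) were at least 2-fold lower and 70 (0.579%) at least 2-fold higher in both SK-N-MC siRNA arrays. They were dimmer than the named genes, with a median log2 of 1.77 in the control array. Among the 2877 with a mean log2 of at least 4, 7 were lower and 19 higher.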
